A study of Mus musculus with 29 samples.

Results

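The genes of the cytosolic ribosomal proteins were followed through adipogenesis in 3T3-L1 cells, an established mouse fibroblast line that turns into fat-storing white adipocytes in culture. Members were taken by name: a gene belonged to the family when its symbol was Rpl or Rps, a number and at most 1 further letter. Of 11959 genes in the deposited count table, 74 met this rule, 44 of the large subunit (Rpl) and 30 of the small subunit (Rps). The name rule itself used none of their measured values, but the table had already been filtered by its authors. Of 79 annotated genes with such a symbol, Rpl10l, Rpl24, Rpl39l, Rpl3l and Rps4l were absent from that count table and were not analysed here. All 29 libraries came from 1 cell line grown to confluence and given 10 µM KDM5-C70 (C70), an inhibitor of the KDM5 histone demethylases, or the vehicle DMSO from day -2 to day 0. Differentiation medium followed from day 0 to day 2 and adipocyte medium after that, in both arms. RNA was taken at days 0, 1, 2 and 7, with 3 vehicle and 4 C70 samples at each of the first 3 times and 4 samples of each at day 7. Nothing in the labels says that replicates came from separate cultures, so p-values measure the spread between these samples, which may be technical.

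Each cytosolic ribosome carries 1 copy of almost every ribosomal protein, and cells make these proteins in matched amounts. Mammalian ribosomal protein mRNAs start with a run of pyrimidines, the 5′ terminal oligopyrimidine (TOP) tract, through which the mTOR pathway holds back or releases their translation. Many of the genes also carry snoRNAs in their introns and have left numerous processed pseudogenes in the genome, whose sequences are nearly the same as the mRNA. Adipogenesis in 3T3-L1 cells begins with a burst of cell division and ends in non-dividing cells rich in lipid and mitochondria.

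The bases around the RefSeq start site are shown for a selection of the members on which the results below turn, because this is where the TOP tract lies. RefSeq (GRCm38.p6) had a promoter entry for 54 of the 74 members, in 65 windows. Each sequence below is 30 bases long, 15 before the start and 15 from it on, and capitals mark the longest run of C and T of at least 5 bases. The marked run need not begin at the start. In Rps27l and Rpl27 it lies wholly before the listed start, and in Rps12 and Rps2 it begins some bases after it. A marked run is therefore not by itself a TOP tract.
Rps10: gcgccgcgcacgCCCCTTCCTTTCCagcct
Rpl27a: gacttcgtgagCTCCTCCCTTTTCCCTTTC
Rps27: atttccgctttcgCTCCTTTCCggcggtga
Rps27l: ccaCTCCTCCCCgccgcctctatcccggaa
Rps6: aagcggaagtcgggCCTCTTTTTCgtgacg
Rpl12: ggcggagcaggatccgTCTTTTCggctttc
Rps12: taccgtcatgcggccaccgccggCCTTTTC
Rps2: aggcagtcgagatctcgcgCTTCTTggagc
Rpl27: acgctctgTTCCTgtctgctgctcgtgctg
Rpl9: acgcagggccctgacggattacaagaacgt
Rps28: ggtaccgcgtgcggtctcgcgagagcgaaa
Rps4x: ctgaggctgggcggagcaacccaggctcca
Rpl11: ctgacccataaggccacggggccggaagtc
Rps20 and Rpl36 had no entry. The windows lie at chr17:27635230-27635259 (minus strand) for Rps10, chr7:109519180-109519209 (plus) for Rpl27a, chr3:90213634-90213663 (minus) for Rps27, chr9:66946071-66946100 (plus) for Rps27l, chr4:86857353-86857382 (minus) for Rps6, chr2:32961697-32961726 (plus) for Rpl12, chr10:23787195-23787224 (minus) for Rps12, chr17:24720048-24720077 (plus) for Rps2, chr11:101442230-101442259 (plus) for Rpl27, chr5:65391417-65391446 (minus) for Rpl9, chr17:33824548-33824577 (minus) for Rps28, chrX:102189377-102189406 (minus) for Rps4x and chr4:136053379-136053408 (minus) for Rpl11. The longest run was 19 bases in Rpl27a and 13 in Rps10, while the windows of Rpl9, Rps28, Rps4x and Rpl11 held no run above 4 bases at their listed starts. Whether a run went with a member's change in level was not tested. In the stretch from 25 bases before to 50 after the start, an unbroken run of at least 8 C or T stood in 48 of 65 member windows (73.8%) and in 8921 of all 32851 RefSeq promoter windows (27.2%). Over the whole 300-base windows, the motif CCGGAAG on either strand stood in 35.4% of member windows and 8.86% of all windows, and CACGTG in 12.3% and 7.15%. A match is a description of these letters only, since listed starts can lie some bases away from the start used in these cells.

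Totals ranged from 16320275 to 24037170 counts per library, and 68 of the 74 members had a mean above 50 CPM (counts scaled to library size by the trimmed mean of M values). Adipocyte and preadipocyte markers followed the labels: the summed level of 10 adipocyte markers was 1288 to 1410 CPM in vehicle cells at day 0 and 26194 to 31744 CPM at day 7, and that of 7 preadipocyte or fibroblast markers 22912 to 23718 and 2829 to 3704 CPM. At most 1 adipocyte marker was at 0 in a library, and no preadipocyte marker was. Of the macrophage markers 1 of 4 was measured and of the endothelial markers 0 of 3. One vehicle library at day 7, replicate 1, stood apart in the family: its members held 1.84% of the counts against 1.31%, 1.33% and 1.49% in the other 3, and it also had the highest adipocyte and preadipocyte marker sums of the 4. What part this library's state had in the day 7 results was not tested, and values without it are given beside the main results whose call it changes.

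In vehicle cells the family's share of counts was slightly higher on day 1 than on day 0 and lower from day 2 on. The members held 2.29% ± 0.12 of all counts (SD, n = 3) at day 0, 2.51% ± 0.037 (n = 3) at day 1, 1.88% ± 0.060 (n = 3) at day 2 and 1.49% ± 0.24 (n = 4) at day 7. No day 1 library overlapped day 0, and every day 2 and day 7 library lay below every day 0 library. In bulk RNA, fewer cells of a type and less of an RNA per cell cannot be told apart. The geometric mean of the 74 members was 200.2 to 218 CPM at day 0, 221 to 231 CPM at day 1, 172 to 184 CPM at day 2 and 137 to 197 CPM at day 7, and without replicate 1 the highest day 7 value was 154 CPM.

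**Figure D1:**
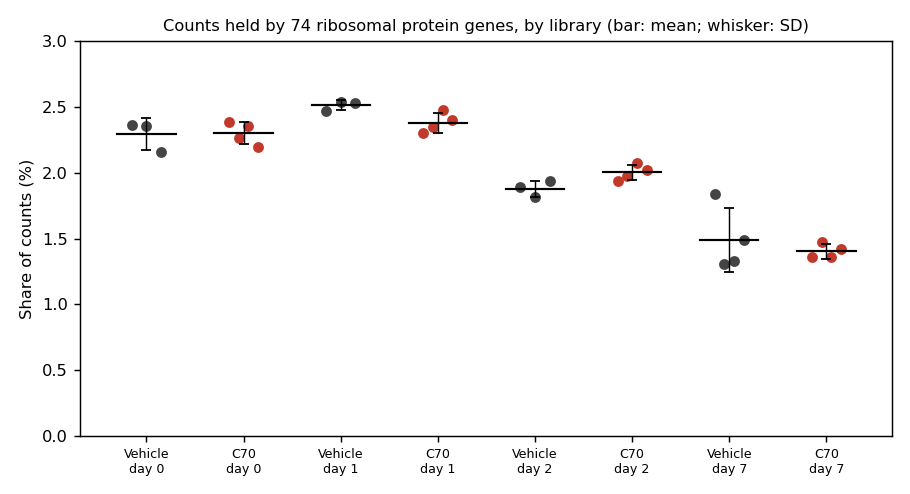
Share of all counts held by the 74 ribosomal protein genes (y axis, percent) in each of the 29 libraries, by group (x axis; grey points vehicle, red points C70, bar the mean, whisker the SD). Vehicle libraries lie at 2.16 to 2.37% at day 0 and 1.31 to 1.84% at day 7, where replicate 1 is the highest, and C70 libraries at day 7 lie at 1.36 to 1.47%.

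Genes were counted as changed when edgeR's quasi-likelihood test gave a Benjamini-Hochberg adjusted p under 0.05 over all 11959 genes and the fold change was over 1.25. At day 1, 7 members were higher than at day 0 and 0 were lower, in a comparison that called 26.2% of all genes higher and 27.9% lower. At day 2, 2 members were higher and 27 lower, against 33.4% and 32.4% of all genes. By day 7, 2 members were higher and 49 lower, against 36.7% of all genes in each direction. The median log2 fold change of the members was 0.08 at day 1, -0.27 at day 2 and -0.45 at day 7, while the median over all genes was 0.01, 0.02 and 0.01. From day 1 to day 2, 47 members were called, 46 of them lower and Rpl9 higher, where 44.3% of all genes were called in either direction, 2662 higher and 2630 lower. Between day 2 and day 7, 0 members rose and 20 fell, against 26.6% and 26.7%, and without vehicle day 7 replicate 1 the members that fell numbered 33. Leaving out that library raised the count of members lower at day 7 than at day 0 from 49 to 60. Both subunits took part: at day 7, 25 of 44 large-subunit and 24 of 30 small-subunit genes were lower, with medians of -0.40 and -0.53, and the difference between subunits was not tested. Without vehicle day 7 replicate 1 these counts were 35 of 44 and 25 of 30, with medians of -0.55 and -0.67.

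**Figure D2:**
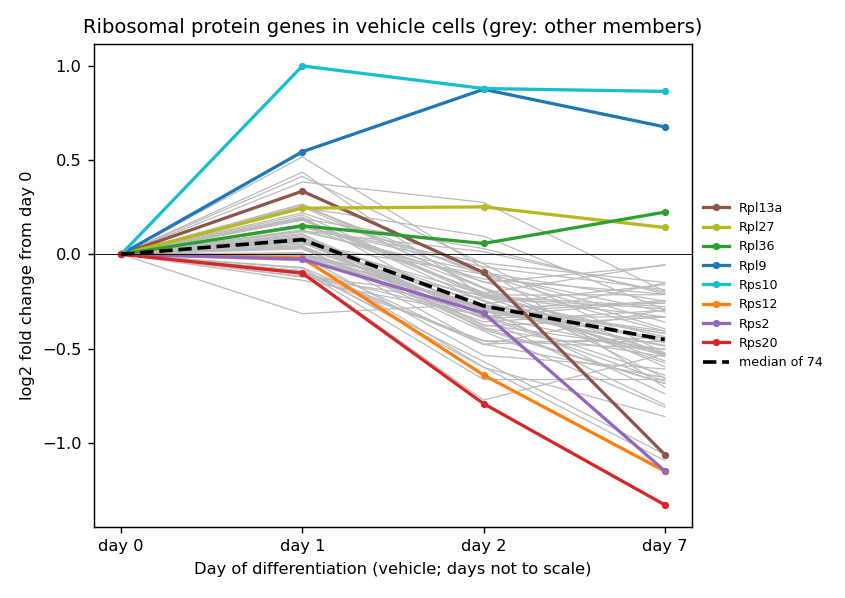
Fitted log2 fold change from day 0 (y axis) in vehicle cells by day (x axis, not to scale), 1 line for each of the 74 members, with 8 named members in colour and the median dashed. The median goes from 0.08 at day 1 to -0.45 at day 7, while Rpl9, Rps10, Rpl27 and Rpl36 stay above 0 (Rps10 not at days 2 and 7 once counts of its pseudogenes are added, Rpl27 not at day 7 without vehicle replicate 1) and Rps20 reaches -1.33.

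The largest falls by day 7 were in Rps20, Rps12, Rps2, Rpl12 and Rpl13a, with Rps28 level with Rpl13a at -1.06 and below it without vehicle day 7 replicate 1 (-1.21 against -1.17). Rps20 (chr4:3831334-3835665, minus strand, GRCm38), a protein of the head of the small subunit, was at 554, 552 and 507 CPM at day 0 and at 280, 182, 188 and 206 CPM at day 7. All 4 day 7 libraries lay far below day 0, with replicate 1 the least reduced, and the log2 fold change was -1.33 ± 0.08 (SE; edgeR adjusted p = 5.9e-16). Rps20 was already lower at day 2 (-0.79 ± 0.09, edgeR adjusted p = 8.8e-10) but not at day 1 (-0.10). Rps12 (chr10:23785183-23787275, minus strand), a small-subunit protein whose gene hosts snoRNAs, went from 545, 535 and 496 CPM to 307, 211, 202 and 226 CPM. Its groups did not overlap either, and it fell by 1.15 on the log2 scale (SE 0.08, edgeR adjusted p = 4.3e-14).

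Rps2 (chr17:24718116-24721929, plus strand), which lines the mRNA entry channel, had 476, 519 and 452 CPM at day 0 and 286, 188, 186 and 210 CPM at day 7. It fell by 1.15 on the log2 scale (SE 0.10, edgeR adjusted p = 5.9e-12), and by 0.84 of this between days 2 and 7, a later course than that of Rps20. Rpl12 (chr2:32961559-32965345, plus strand), at the base of the stalk where translation factors bind, went from 531, 536 and 489 CPM to 313, 204, 218 and 235 CPM, a log2 fold change of -1.09 ± 0.08 (edgeR adjusted p = 7.9e-14). Rpl13a (chr7:45125558-45128761, minus strand), also known as a silencer of the translation of inflammatory mRNAs, was at 31.9, 31.5 and 32.3 CPM at day 0, rose to 37.0, 42.0 and 41.7 CPM at day 1, and was at 18.6, 14.4, 13.7 and 14.5 CPM at day 7. Day 1 lay above and day 7 below every day 0 library, with log2 fold changes of 0.34 ± 0.08 (edgeR adjusted p = 0.00037) and -1.06 ± 0.08 (edgeR adjusted p = 2.3e-13).

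On day 2 the largest falls were in Rps20, Rps27 (-0.77 ± 0.09, edgeR adjusted p = 7.7e-09) and Rpl10 (-0.66 ± 0.07, edgeR adjusted p = 1.3e-09). Rpl10, which joins the large subunit late in its assembly, had 415, 412 and 375 CPM at day 0 and 259, 240 and 260 CPM at day 2. Its day 7 libraries, at 304, 227, 228 and 253 CPM, spanned the day 2 range. The largest rises at day 1 were in Rps10, Rpl9 and Rpl27a. Rps10 was at 0.25 and not called once counts of its pseudogenes were added. Rpl27a rose from 314, 312 and 270 CPM to 413, 427 and 442 CPM (log2 fold change 0.52 ± 0.09, edgeR adjusted p = 1.2e-05) and was below its starting level by day 7, at 237, 162, 156 and 178 CPM (-0.71 ± 0.09, edgeR adjusted p = 1.1e-08).

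Members with a known role outside the ribosome, or in its regulation, differed in the size of their day 7 value, and these differences were not tested. Rps3, at the mRNA entry site, and Rps19, which is mutated in Diamond-Blackfan anaemia, fell by 0.67 (SE 0.07) and 0.53 (SE 0.08) on the log2 scale by day 7 (edgeR adjusted p = 5.1e-10 and 6.0e-07). Rps6, the substrate of S6 kinase, had 179, 172 and 156 CPM at day 0 and 201, 140, 147 and 164 CPM at day 7, and these overlapped (log2 fold change -0.05 ± 0.07, edgeR adjusted p = 0.49; -0.17 without vehicle day 7 replicate 1, not called). Rpl5 and Rpl11, which bind 5S rRNA and can hold the p53 regulator Mdm2, had log2 fold changes of -0.25 ± 0.07 and -0.06 ± 0.09 (edgeR adjusted p = 0.0013 and 0.55), and neither reached the fold required. Without vehicle day 7 replicate 1 Rpl5 was at -0.35 and was called lower (edgeR adjusted p = 4.6e-08), as it was by quantile normalization (-0.36), and Rpl11 was at -0.23, not called.

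To ask which members departed from the rest, each library was rescaled to the geometric mean of its 74 members and refitted, so that a value of 0 means moving with the family. Relative to the family, 4 members were higher and 1 lower at day 1, 5 higher and 7 lower at day 2, and 6 higher and 9 lower at day 7. At day 1 the same scaling called 20.4% of all genes higher and 32.4% lower. The shares were 45.5% higher and 23.4% lower for day 2, and 55.3% higher and 23.2% lower for day 7. In all, 22 members departed in at least 1 of the 3 comparisons, and Rps10, Rpl9, Rps20, Rps12, Rpl27, Rps28, Rpl12 and Rps4x did so in at least 2. The other members stayed within a fold of 1.25 of the family or had an adjusted p above 0.05.

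**Figure D3:**
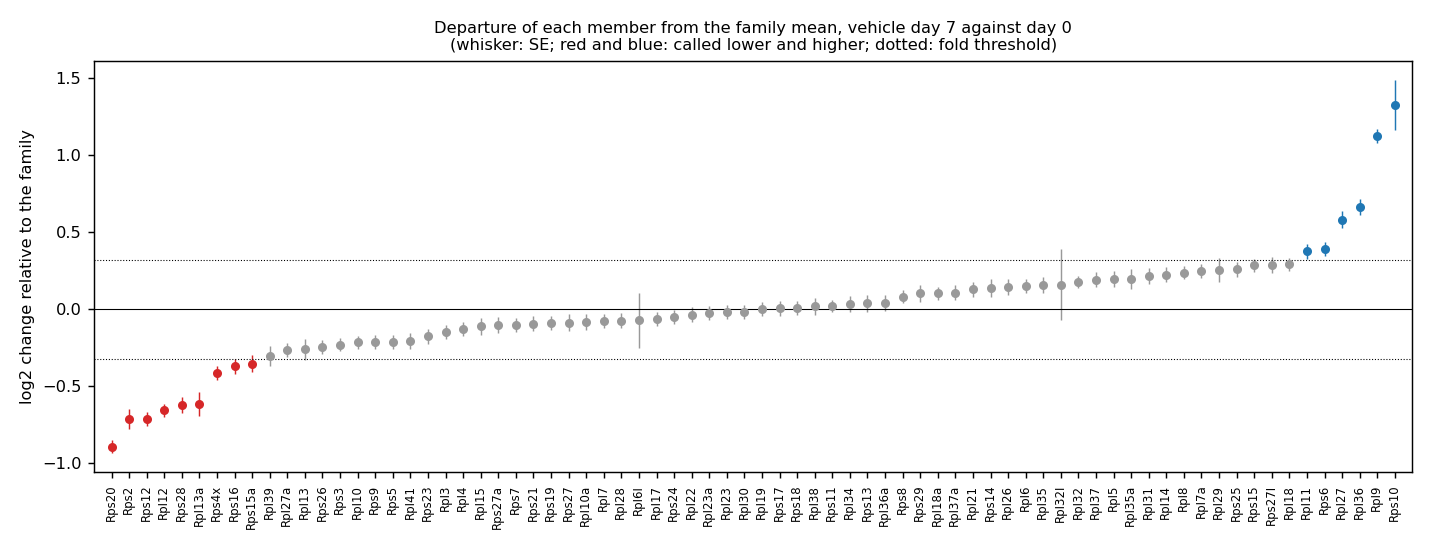
Log2 change relative to the family (y axis) between vehicle day 0 and day 7 for each of the 74 members (x axis, in order), with the SE as whiskers, members called lower in red and higher in blue, and the fold of 1.25 dotted. Rps20 is lowest at -0.89, and Rpl9 and Rps10 are highest at 1.13 and 1.33 (Rps10 at 0.22 and not called once counts of its pseudogenes are added).

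Rpl9 (chr5:65388364-65391444, minus strand), a large-subunit protein near the site where translation factors bind, rose while its family fell. It was at 357, 340 and 313 CPM at day 0, 478, 501 and 494 CPM at day 1, 622, 595 and 638 CPM at day 2 and 654, 483, 486 and 531 CPM at day 7. No later vehicle library fell as low as day 0, and the log2 fold changes were 0.54 ± 0.07, 0.88 ± 0.08 and 0.68 ± 0.07 (edgeR adjusted p = 1.5e-07, 5.4e-12 and 3.6e-10). Relative to the family the values were 0.44, 1.12 and 1.13. A copy of Rpl9 in the table, Rpl9-ps6, held 0.985% of the summed level of gene and copy, and adding its counts left the day 7 change at 0.67.

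Rpl27 and Rpl36, both of the large subunit, lay above the family at day 7 without being called higher in CPM; without vehicle day 7 replicate 1 their day 7 log2 fold changes were -0.0028 and 0.09. Rpl27 had 67.6, 71.4 and 60.4 CPM at day 0, 82.5, 74.1 and 80.8 CPM at day 2 and 95.1, 59.2, 66.2 and 73.0 CPM at day 7. Day 7 overlapped day 0 in CPM, and relative to the family Rpl27 was higher by 0.50 ± 0.06 at day 2 and 0.58 ± 0.06 at day 7 (edgeR adjusted p = 2.1e-08 and 1.8e-10). Rpl36 was at 238, 245 and 209.9 CPM at day 0 and 344, 241, 228 and 266 CPM at day 7, an overlap. It was 0.67 ± 0.05 above the family at day 7 (edgeR adjusted p = 1.8e-12), and Rps6 and Rpl11 were above it by 0.39 and 0.38.

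Rps20, Rps12, Rpl12, Rps28 and Rps4x were called below the family at both day 2 and day 7. Relative to the family, Rps20 was at -0.55 and -0.89, Rps12 at -0.40 and -0.71, Rpl12 at -0.36 and -0.65, Rps28 at -0.32 and -0.62, and Rps4x at -0.36 and -0.41, each with an SE of at most 0.06 and an edgeR adjusted p of at most 3.9e-06. The day 2 call of Rps28 was at the fold threshold: it was lost without vehicle day 0 replicate 1 (-0.30), without day 2 replicate 3 (-0.30), with the median ratio as reference (-0.31) and with a reference that left out the 10 lowest members (-0.30). Rps28, near the mRNA exit site, went from 258, 245 and 226 CPM to 151, 100.4, 102 and 113 CPM by day 7. Rps4x, the X-linked gene of a small-subunit protein, went from 556, 554 and 502 CPM to 365, 267, 265 and 287 CPM. In both, every day 7 library was below every day 0 library.

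Rps10 (chr17:27630418-27636669, minus strand) was the member at the lowest level per kb of annotated exon in vehicle cells at day 0. Its rise was no longer called once the counts of near-identical pseudogenes were added. Its counts gave 3.02, 3.07 and 3.39 CPM at day 0 and 5.89, 7.28 and 5.79 CPM at day 1, 5.80, 5.85 and 5.78 CPM at day 2 and 5.41, 5.80, 5.34 and 6.47 CPM at day 7. No day 0 library overlapped a later one, and the log2 fold changes were 1.00 ± 0.15, 0.88 ± 0.15 and 0.86 ± 0.15 (edgeR adjusted p = 7.3e-07, 4.9e-06 and 3.0e-06). The pseudogenes Rps10-ps1 and Rps10-ps2, whose transcripts match its coding sequence, held 66.1% of the summed level of gene and copies. Rps10-ps1 was at 5.52 ± 1.09 CPM (SD, n = 3) at day 0 and 3.34 ± 1.01 CPM (n = 4) at day 7, and Rps10-ps2 at 6.25 ± 0.89 and 3.41 ± 0.61 CPM. With their counts added, the log2 fold change was 0.25 at day 1, -0.04 at day 2 and -0.25 ± 0.11 at day 7 (edgeR adjusted p = 0.036), none was called, and Rps10 no longer departed from the family. Which of the 3 genes its reads came from cannot be told from the table.

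How many reads members lost to near-identical copies cannot be told from the table, since the handling of reads that match several genes is not given in the sources used here. Of the 74 members, 68 had an annotated copy with at least 95% identity over at least 80% of the coding sequence, and 60 had a copy in the table. All 97 such copies together held 0.118% of all counts, where the members held 1.31 to 2.54%. Copies held over 10% of the summed level for 18 members, among them Rps2 (28.7%), Rpl13a (29.2%) and Rps28 (13%). With copies added, Rps2 and Rpl13a still fell by 1.18 and 0.94 on the log2 scale by day 7. Of the 22 departing members, 21 still departed with copies added, all but Rps10. Rpl21 departed only with copies added, at 0.53 above the family by day 7. Of the mean of 78.8 CPM added to it, 72.7 CPM came from BC004004, a gene annotated as protein coding. Rpl21 alone fell from a vehicle mean of 206 CPM at day 0 to 167 CPM at day 7. With copies added its log2 fold change in CPM was 0.07, not called. Whether the added reads came from Rpl21 or from BC004004 itself cannot be told from the table. Rpl6l and Rpl32l carry member names but are annotated as processed pseudogenes, and over all libraries they lay between 0.63 and 3.24 CPM.

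Paralogs of ribosomal proteins did not keep a fixed ratio. Rps27l, a paralog of Rps27 that p53 induces, was at 57.4, 55.3 and 52.0 CPM at day 0, 43.3, 43.6 and 45.5 CPM at day 1 and 61.2, 43.6, 45.4 and 46.6 CPM at day 7. Day 1 lay below day 0 in every library but just short of the fold required (log2 fold change -0.32 ± 0.08, edgeR adjusted p = 0.00079), and relative to the family Rps27l was lower at day 1 by 0.42 (SE 0.06, edgeR adjusted p = 1.9e-07). Rps27 had 330, 323 and 285 CPM at day 0, 287, 296 and 295 CPM at day 1, 186, 176 and 187 CPM at day 2 and 278, 183, 199 and 207 CPM at day 7. It was lowest at day 2, and relative to the family it was at -0.53 ± 0.06 at day 2 (edgeR adjusted p = 1.9e-09) and -0.09 ± 0.05 at day 7 (edgeR adjusted p = 0.13). The log2 ratio of Rps27l to Rps27 in CPM was -2.51 ± 0.05 (SD, n = 3) at day 0, -2.73 ± 0.03 (n = 3) at day 1, -2.0 ± 0.04 (n = 3) at day 2 and -2.13 ± 0.05 (n = 4) at day 7, and no 2 neighbouring days overlapped.

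Rpl22 and Rpl7 were compared with Rpl22l1 and Rpl7l1, whose symbols lie outside the name rule. Rpl22 fell by 0.48 on the log2 scale by day 7 (SE 0.07, edgeR adjusted p = 1.7e-07), and Rpl22l1 had a log2 fold change of -0.15 ± 0.08 (edgeR adjusted p = 0.074; -0.27 without vehicle day 7 replicate 1, not called). The log2 ratio of Rpl22l1 to Rpl22 went from -2.61 ± 0.03 at day 0 (SD, n = 3) to -2.11 ± 0.02 at day 2 (n = 3) and -2.28 ± 0.02 at day 7 (n = 4). Rpl7 fell by 0.53 (SE 0.07, edgeR adjusted p = 1.2e-08), and Rpl7l1 had a log2 fold change of 0.28 ± 0.06 (edgeR adjusted p = 0.00024), short of the fold required, which it passed without vehicle day 7 replicate 2 (0.33). The ratio of Rpl7l1 to Rpl7 went from -3.07 ± 0.03 to -2.28 ± 0.04 at day 2 and -2.26 ± 0.05 at day 7. Both paralogs gained on their partner in vehicle, and for both pairs every day 2 and day 7 library lay above every day 0 library. After C70 the ratio of Rpl22l1 to Rpl22 was lower than in vehicle, at -2.87 for day 0, -2.80 for day 1 and -2.49 for day 2 (n = 4 each), without overlap, and overlapped vehicle at day 7 (-2.34). That of Rpl7l1 to Rpl7 was lower without overlap on all 4 days, at -3.20, -3.04, -2.60 and -2.47. That of Rps27l to Rps27 was higher than in vehicle at day 0 (-2.34), overlapped at day 1 (-2.70), and was lower at day 2 (-2.22) and, by a narrow margin, at day 7 (-2.30). These ratios were not tested.

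**Figure D4:**
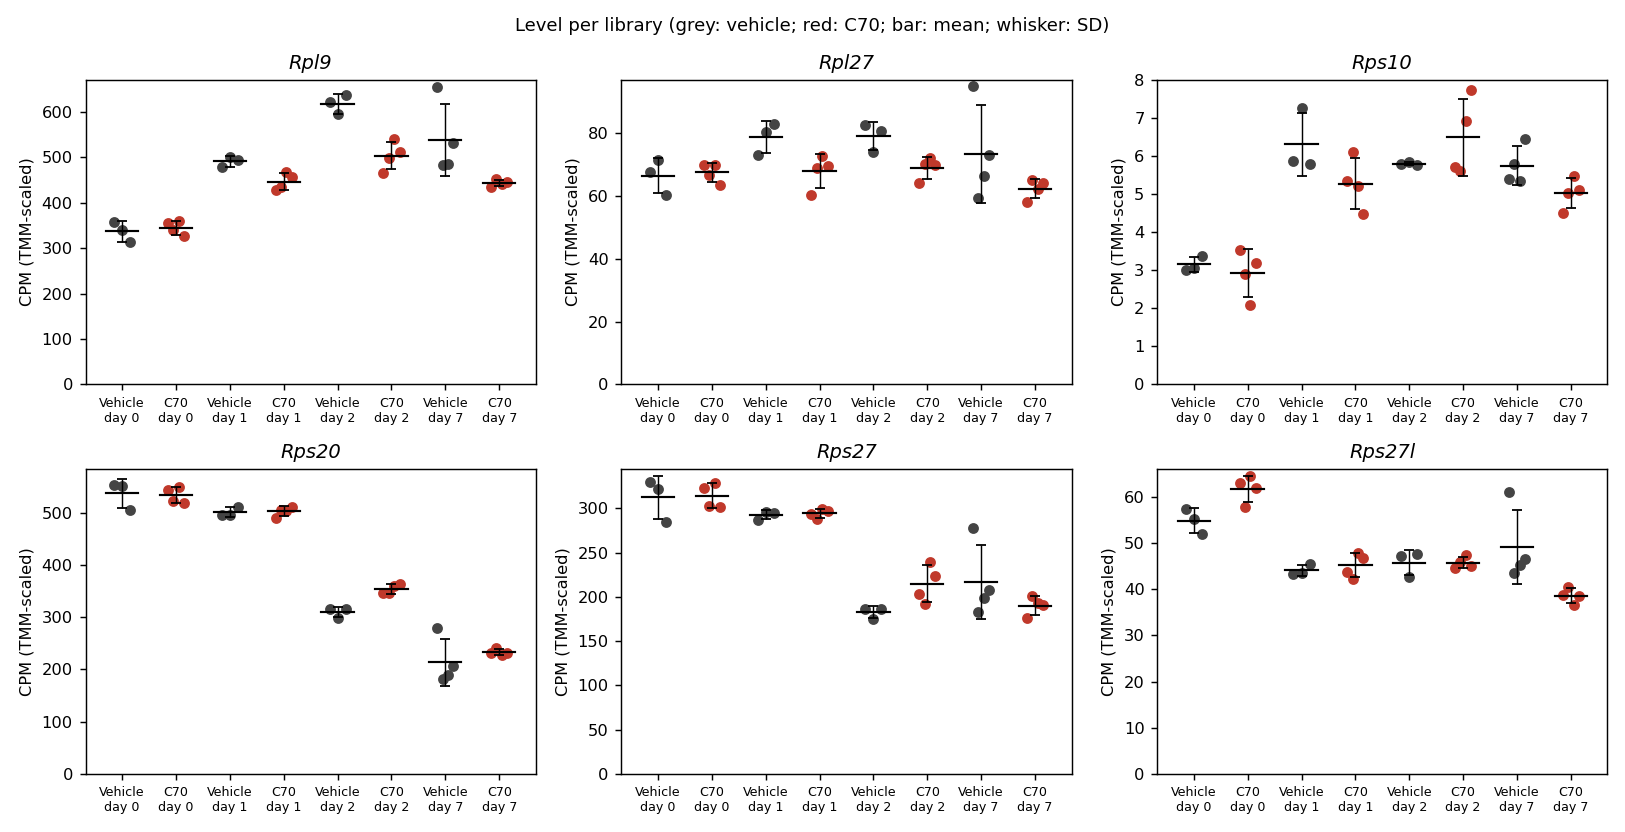
Level in CPM (y axes, from 0) of 6 members in each library by group (x axes; grey vehicle, red C70, bar the mean, whisker the SD). Rpl9 rises in vehicle to 595 to 638 CPM at day 2 where C70 libraries reach 466 to 540 CPM, Rps20 falls in both arms, and vehicle day 7 replicate 1 is the highest of its group in 5 of the 6 panels, Rps10 being the exception.

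After C70 the family as a whole moved little. At day 0, the end of the treatment, 0 members were called with edgeR in either direction, 1 had an unadjusted p under 0.05 and DESeq2 called 0, while 5.89% of all genes were higher and 3.09% lower. The members' log2 fold changes at day 0 ran from -0.24 (Rpl6l) to 0.17 (Rps27l), with a median of 0.04 and a median SE of 0.08, and neither end was called. At day 1, 0 members were higher and 1 lower, against 13.6% and 7.80% of all genes. That member was the pseudogene Rpl6l, at 3.24, 2.63 and 2.73 CPM in vehicle and 2.26, 1.57, 1.88 and 1.46 CPM in C70 cells, which did not overlap (log2 fold change -0.68 ± 0.17, edgeR adjusted p = 0.0014). Without it the lowest value at day 1 was -0.26, in Rps10, and the highest was 0.13 (Rpl32l), neither called.

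At day 2 the median log2 fold change of the members after C70 was 0.10, with 59 above 0 and 15 below. With edgeR 0 members were called, 21 had an unadjusted p under 0.05 and DESeq2 called 0, where 16.9% of all genes were called higher and 13.6% lower. By adjusted p alone, 14 members were higher, by 0.17 to 0.25 on the log2 scale, and 1 was lower, beside 25.3% of all genes higher and 25.4% lower on that rule. The 14 included Rps20, Rps27, Rpl10, Rpl12 and Rps4x, all of which had fallen in vehicle by day 2, and Rpl37a had the largest value (0.25 ± 0.09, edgeR adjusted p = 0.017). Others of the 14 had smaller falls in vehicle between days 0 and 2, such as Rpl10a (group means 316 and 275 CPM) and Rpl4 (1201 and 1014 CPM). The median over all members was also below 0 in vehicle at day 2, so a fall by then was not particular to the 14. The 14 are not tallied here by their vehicle change. All 14 shared their vehicle libraries with the time course, so the values are side by side and not independent.

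Of the members below 0 after C70 at day 2, only Rpl9 was lower by adjusted p alone. It was at 622, 595 and 638 CPM in vehicle and 466, 498, 540 and 511 CPM in C70 cells at day 2, and at 654, 483, 486 and 531 CPM and 435, 452, 442 and 445 CPM at day 7. Every C70 library lay below every vehicle library of its day, with log2 fold changes of -0.30 ± 0.07 and -0.28 ± 0.06 (edgeR adjusted p = 0.00067 and 0.00087), both short of the fold required, and without vehicle day 7 replicate 1 the day 7 value was -0.17. The day 2 value passed the fold and was called without vehicle day 2 replicate 2 (-0.32) or C70 day 2 replicate 3 (-0.33). Relative to the family Rpl9 was lower after C70 at day 2, by 0.38 (SE 0.04, edgeR adjusted p = 8.1e-08). Rpl27, the other large-subunit gene above the family at days 2 and 7 in vehicle, was at -0.28 ± 0.06 relative to the family after C70 at day 2 (edgeR adjusted p = 0.00018), short of the fold required. Rpl9 was the single departure at day 2, and the pseudogene Rpl6l the single departure at day 1, while 0 members departed at days 0 and 7 (2 and 24 with an unadjusted p under 0.05). At day 7, 1 member departed when vehicle replicate 1, vehicle replicate 4 or C70 replicate 1 was left out. The same scaling called 7.43%, 19.3%, 31.8% and 17.4% of all genes at days 0, 1, 2 and 7, in either direction. Summed adipocyte markers were lower in C70 than in vehicle cells at day 2 (12760 to 14222 against 22613 to 23518 CPM) and preadipocyte markers higher (6702 to 7101 against 4118 to 4191 CPM), while at day 7 the adipocyte sums overlapped (28647 to 31753 against 26194 to 31744 CPM) and the preadipocyte sums were higher in C70 cells (5604 to 6378 against 2829 to 3704 CPM). The part of these marker differences in that of Rpl9 or of Rps27l at day 7 was not tested.

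At day 7, 0 members were higher and 1 lower after C70, against 14.3% and 4.85% of all genes. Rps27l was at 61.2, 43.6, 45.4 and 46.6 CPM in vehicle and 38.9, 40.5, 36.6 and 38.5 CPM in C70 cells, without overlap, and its log2 fold change was -0.35 ± 0.07 (edgeR adjusted p = 0.00024). Without vehicle replicate 1 its value was -0.22 and was not called, and Rpl13 and Rpl39 were then called higher, at 0.34 ± 0.08 and 0.42 ± 0.07 (edgeR adjusted p = 0.00053 and 2e-05). Rpl39 was at 64.5, 38.3, 40.5 and 46.8 CPM in vehicle and 56.9, 56.4, 55.1 and 55.3 CPM in C70 cells. With all libraries Rpl39 had a log2 fold change of 0.24 and was the largest rise, not called. The median over the 74 members was -0.04 with that library and 0.10 without it. By adjusted p alone, 1 member was higher and 4 lower with it, against 22.3% and 18.8% of all genes, and 26 were higher and 2 lower without it, against 23.1% and 18.1%. C70 libraries held 1.40% ± 0.056 of counts in the members at day 7 (SD, n = 4), inside the vehicle range. At day 2 they held 1.94 to 2.07%, above the 1.82 to 1.93% of the vehicle libraries, and at days 0 and 1 the arms overlapped.

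**Figure D5:**
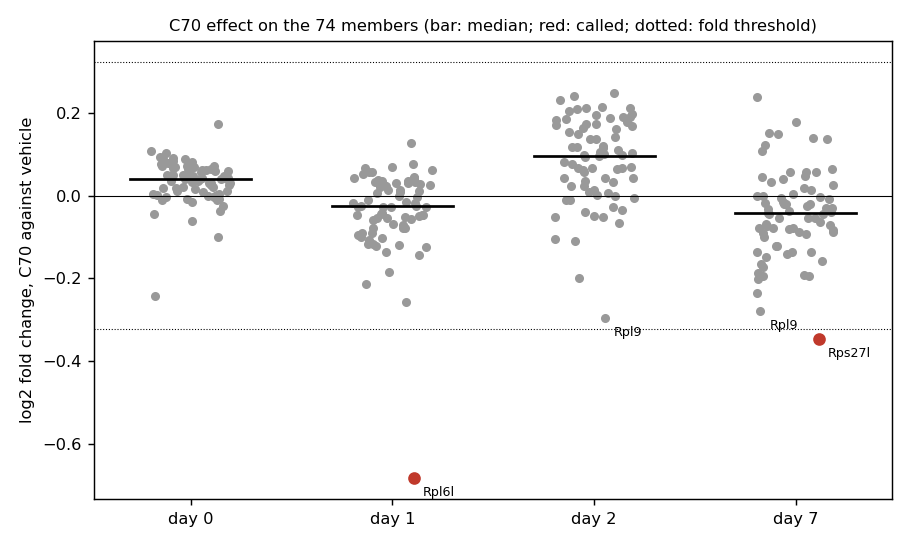
Log2 fold change of C70 against vehicle (y axis) for each of the 74 members at days 0, 1, 2 and 7 (x axis), with the median as a bar, called members in red and the fold of 1.25 dotted. Medians are 0.04, -0.03, 0.10 and -0.04, and Rpl6l at day 1 and Rps27l at day 7 are the called members.

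The C70 effect was also compared between days. With edgeR, 0 members differed between days 0 and 1 (0 with an unadjusted p under 0.05 and 0 by DESeq2) and 0 between days 1 and 2 (3 and 0), where 13.9% and 13.8% of all genes did. Between days 2 and 7 there were 3, Rps27, Rps27l and Rps29, all lower at day 7, against 20.9% of all genes. Rps27 had a C70 effect of 0.23 at day 2 and -0.19 at day 7, a difference of -0.42 ± 0.12 (edgeR adjusted p = 0.0074). Rps29 was at the threshold (-0.33 ± 0.13, edgeR adjusted p = 0.0499), and most alternatives lost its call, DESeq2 (-0.32) among them. The call of Rps27 was also lost with the replicate block (-0.40), and that of Rps27l without vehicle day 2 replicate 2 (-0.30). Without vehicle day 7 replicate 1 the differences were -0.28 for Rps27, -0.23 for Rps27l and -0.17 for Rps29, and none of the 3 was called.

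Other genes of the pathway were read from fixed lists, with the day 7 comparison in vehicle first. Of 9 ribosomal protein genes outside the name rule, 4 fell (median -0.15), among them the stalk proteins Rplp1 and Rplp0, which fell by 0.93 and 0.68 on the log2 scale. Of 15 other TOP mRNAs, 0 rose and 10 fell (median -0.57), with Nap1l1, a histone chaperone, at -1.26 and Pabpc1, the poly(A)-binding protein, at -0.84. Of 7 snoRNA host genes, 2 rose (Snhg3 at 0.67 and Snhg5 at 0.62) and 3 fell, led by Snhg8 at -0.74 and Snhg12 at -0.69 (median 0.09).

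Lists of genes that build ribosomes or control their synthesis had medians above 0, and whether they differed from the members was not tested. Of 56 genes of rRNA processing and ribosome assembly, 38 rose and 5 fell by day 7 (median 0.56), with the assembly factors Ppan and Bysl at 1.48 and 1.43 and, among those that fell, Npm1 at -0.96 and Utp14a at -0.74. Of 15 RNA polymerase I genes, 6 rose, a share near that of all genes, and 1 fell (median 0.15), with the subunits Polr1b and Polr1e at 0.90 and 0.87 and the termination factor Ttf1 at -0.33, a call lost without vehicle day 0 replicate 3 (-0.26), without day 7 replicate 4 (-0.31) and by quantile normalization (-0.28). Among 13 genes that control ribosomal protein synthesis, 10 rose and 2 fell, with Myc at 1.53 ± 0.07 and Mtor at 1.52 ± 0.07, and with the mTOR inhibitors Tsc1 and Tsc2 at -1.0 and -0.49 (median 0.69). The translational repressors of the list, Eif4ebp1, Eif4ebp2 and Larp1, rose too, at 0.69, 1.11 and 0.44. Of 77 mitochondrial ribosomal protein genes, 73 rose and 1 fell (median 1.09), with Mrpl12 at 2.56, Mrpl46 at 2.04 and Mrps6 at -1.0. Of 17 genes in a list of known p53 targets that also held Trp53, the gene of p53 itself, 4 rose and 9 fell (median -0.60). Among them were Cdkn1a at 1.02, Btg2 at 0.81, Plk2 at -5.33 and Eda2r at -4.66. These counts stand beside 36.7% of all genes in each direction and a median of 0.01.

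The same lists were counted after C70, beside shares of all genes called higher and lower of 13.6% and 7.80% for day 1, 16.9% and 13.6% for day 2, and 14.3% and 4.85% for day 7. At day 1, 15 of 56 assembly genes fell and 0 rose (median -0.19), 9 of 77 mitochondrial ribosomal protein genes fell and 0 rose (median -0.21), and 10 of 17 genes of the p53 list rose and 0 fell (median 0.39), while the members' median was -0.03 (-0.07 by quantile normalization). At day 2, 25 mitochondrial ribosomal protein genes fell and 0 rose (median -0.25), and 1 assembly gene rose and 1 fell (median 0.10). Of the TOP mRNAs 2 rose and 0 fell (median 0.13), among them Pabpc1 at 0.33. At day 7 the medians were -0.18 for assembly genes, -0.21 for mitochondrial ribosomal proteins and 0.01 for TOP mRNAs, against -0.04 for the members. Without vehicle day 7 replicate 1 the members' median was 0.10, and the medians of the lists without it are not given here. Cd68, the macrophage marker that was measured, was at 1.13 to 1.67 CPM in vehicle and 18.7 to 19.8 CPM in C70 cells at day 0, and its part in the C70 results was not tested.

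Per kb of annotated exon, the members spanned a wide range of levels. In vehicle cells at day 0 the median was 132 CPM per kb, the lowest 1.37 (Rps10) and the highest 712 (Rpl32). At day 7 the median was 101 CPM per kb, the lowest 1.72 (Rpl6l) and the highest 704 (Rpl36). Leaving out Rps10 and both pseudogenes, the SD of the log2 level over members lay between 1.19 and 1.24 in the vehicle groups. Changes with time by day 7 over all members ran from -1.33 (Rps20) to 0.86 (Rps10, -0.25 with copies added). Without Rps10 the highest change was that of Rpl9. Exon lengths here join all annotated isoforms, and reads lost to near-identical copies lower a level, so these values are not protein amounts.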

How the data were processed

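RNA-seq of 29 3T3-L1 samples was analysed. Per the submitters' processing notes, STAR 2.7.2a and GRCm38 were used by the authors, whose libraries were strand-specific; the counting program, its use of strand and multimapping reads, and the filter on low genes are not given in the sources used here. The deposited table holds whole-number counts per gene for 11959 genes. Here, counts were scaled by TMM and 1 quasi-likelihood model of the 8 group means, with no covariate, was run (edgeR 4.0.16 under R 4.3.3); log2 fold changes carry an SE. Genes with an adjusted p under 0.05 over all genes and a fold over 1.25 were called. For departures, library sizes were replaced by the geometric mean of the members' counts plus 0.5. Members and lists were chosen with earlier results of these data known.

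Named genes were the 5 called rises and 5 called falls of largest size in vehicle at day 7, 3 and 3 at days 1 and 2 and after C70 at each day (the largest each way where none was called), members departing in at least 2 vehicle comparisons, fixed paralog pairs, 6 members with known roles, and 2 rises and 2 falls per list. Others named (Rpl36, Rps27 and Rps27l as departures, Rpl21, Rpl13, Rps29, the C70 values of Rpl27, Cd68, and Eif4ebp1, Eif4ebp2 and Larp1) were chosen after their values were seen. Copies were found with BLAST 2.17.0 against GENCODE M21 transcripts; start windows are RefSeq GRCm38.p6. Replicates differed by more than counting noise (chi-square per degree of freedom 2.67 to 47.1 over 39 pairs). On simulated data with 200 of 11959 genes changed 2-fold, 98% were recovered in the vehicle day 7 comparison, with 3 false calls by TMM and 4 by family scaling. The simulation changed far fewer genes than were called in the real data and left most members unchanged. These figures therefore do not give the error rates of the real comparisons. Alternatives were limma 3.58.1 on quantile-normalized log2 values (pseudocount 1), DESeq2 1.42.0, other scalings, filters, thresholds and fits, and leaving out each library. Tables and plots used Python 3.11.15, pandas 2.3.3 and matplotlib 3.10.9. One gene of a list is not reported here.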

Additional observations from a re-analysis of the deposited data

Results flagged for a closer look

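In groups of 4 samples, a value was marked when its gap to the nearest other, divided by the group's range, was above Dixon's 95% critical value. Over the members named by rule and the family's share, 135 groups were tested and 5 were marked, where chance gives about 1 in 20. These were Rps29 in C70 day 1 replicate 1 at 180.5 CPM, Rpl5 in C70 day 2 replicate 2 at 192 CPM, Rps12 in C70 day 2 replicate 1 at 372 CPM, Rpl22 in vehicle day 7 replicate 1 at 179 CPM and Rpl6l in C70 day 7 replicate 2 at 2.37 CPM. Over all 74 members, 14 of 370 groups were marked, and the 4 marks in vehicle at day 7 (Rpl10a, Rpl22, Rpl41 and Rps15a) were all in replicate 1.

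The C70 effect differed between days 2 and 7 by edgeR's interaction contrast for Rps27 (-0.42), Rps27l (-0.35) and Rps29 (-0.33), on the log2 scale.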

How the results depend on the processing

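On the rule of adjusted p alone, members called numbered 20, 55 and 43 for vehicle day 1 and day 2 against day 0 and day 7 against day 2, and 15 and 5 for C70 at days 2 and 7; departures numbered 28, 34 and 48 for vehicle and 3, 18 and 15 for C70 at days 1, 2 and 7. With a fold over 1.5 the vehicle counts were 1 at day 1, 8 at day 2 and 22 at day 7 against day 0, 5 for day 2 against day 1 and 3 for day 7 against day 2, and 0 for C70 at day 7 and for its difference from day 2. Quantile normalization gave 34 for vehicle day 7 against day 2, 2 for C70 at day 1 and 1 for each of the earlier differences between days, and medians over the members of -0.43 for vehicle day 2 against day 1 (from -0.36), -0.07 for C70 at day 1 and 0.17 for its difference between days 1 and 2 (from 0.12); without the genes of lowest level C70 at day 1 had 0. Replicate numbers did not pair the samples (correlations of their deviations from -0.205 to 0.214, in 0 of 9 comparisons all above 0.1), and a separate fit with a replicate block gave 1 in place of 3 for the C70 effect between days 2 and 7 and changed no other count by over 1.5 times. Leaving out each library gave 14 to 33 for vehicle day 7 against day 2 (33 without vehicle day 7 replicate 1), 0 to 1 for C70 at day 2 (Rpl9, without vehicle replicate 2 or C70 replicate 3), 1 to 3 at day 7 (3 without vehicle replicate 2, 2 without replicate 1 or 3), 0 to 1 for its difference between days 1 and 2 (1 without C70 day 1 replicate 1 or vehicle day 2 replicate 3), 1 to 6 between days 2 and 7 (1 without vehicle day 2 replicate 2 or day 7 replicate 1, 6 without vehicle day 7 replicate 2 or 3), and 0 to 1 for departures after C70 at day 7 (1 without vehicle replicate 1 or 4 or C70 replicate 1). Without the 100 highest other genes in the total, shares were 2.99%, 3.31%, 2.50% and 2.02% in vehicle and 3.01%, 3.19%, 2.67% and 1.99% in C70 cells at days 0, 1, 2 and 7.

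Directions reversed for Rps10 with copies added, an alternative chosen after seeing the data (-0.25 at day 7 and -0.0378 at day 2), and otherwise in uncalled values near 0. By quantile normalization Rpl32l after C70 at day 1 was at -0.0732, and after C70 at day 7 Rpl22 was at 0.0165 and Rpl7 at 0.0258. Without the genes of lowest level these last were at 0.0208 and 0.0175, and Rpl22 was at 0.0018 by median scaling and 0.0027 by DESeq2. Leaving out each library gave -0.169 to 0.0110 for Rps6 and -0.228 to 0.0116 for Rpl11 in vehicle at day 7, and -0.0474 to 0.112 for Rpl22, -0.103 to 0.0630 for Rpl22l1 and -0.0571 to 0.107 for Rpl7 after C70 at day 7. The cause was not tested. Of 93 results on named genes, 71 kept their direction and call in every alternative. The depth limits Rps10, Rpl6l and Rpl32l, all under 10 CPM.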
